A study of Homo sapiens with 4 samples.

Results

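The genes described here are 42 genes of DNA replication and mitosis, among the 24014 genes of a count table from SK-N-SH cells. They were chosen by name, as the rows whose symbol was on a list of 16 replication (S-phase) genes and 26 mitotic genes, and each name had 1 row. SK-N-SH is a human neuroblastoma line. The cells carried a recombinant lentivirus for AP1AR-DT, a long non-coding RNA (AP1AR-DT_OE, 2 libraries) or the empty lentiviral vector on an otherwise wild-type background (control, 2 libraries), and the study used them to look for transcripts that respond to AP1AR-DT. All 4 libraries came from this 1 line. For AP1AR-DT_OE replicate 2, the genotype and treatment labels end the clone-based name of the transgene in a digit that the title does not have. The sample was grouped by its title. The labels do not say whether libraries of a group came from separate cultures or what the replicate numbers stand for. P values therefore measure the spread between these libraries alone, which may be technical. The fit estimated that spread partly over all genes, so a gene's interval can be wider than its own SD implies.

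Cells copy their DNA once per division. Before S phase, CDC6 and CDT1 load the MCM2-7 helicase onto replication origins, and cyclin E with CDK2 and the E2F transcription factors then drive origin firing and the supply of nucleotides. In mitosis, cyclin B with CDK1 starts the division, the Aurora and Polo kinases and the kinesins build the spindle, kinetochores attach chromosomes to it, and the spindle checkpoint holds the anaphase-promoting complex until attachment is complete. Transcripts of both classes are periodic: many replication genes are switched on by E2F at the start of S phase, and many mitotic genes are held down by the DREAM complex and switched on late through elements known as CCAAT boxes and CHR elements. Their summed level is widely used as a readout of proliferation.

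Promoter sequence from RefSeq (GRCh38.p14, a window of 250 bases before to 50 bases after the start) was found for 34 of the 42 genes, 13 of the replication class and 21 of the mitotic class. MCM4, MCM5, CCNE2, AURKA, TPX2, BIRC5, UBE2C and TTK had no entry. The 150 bases before the start are printed for 3 replication genes and 4 mitotic genes, to show the elements by which the classes are known. They are written in the direction of transcription, with capitals for E2F-type letters (the runs TTCCCGC and also TTGGCGC, the variant TTCGCGC and the variant TTGCCGC), for CCAAT boxes (CCAAT) and for CHR-type letters (the runs TTTGAA and also TTTAAA) on either strand. The replication genes are PCNA (chr20:5126623-5126772, minus strand), MCM6 (chr2:135876444-135876593, minus strand) and E2F1 (chr20:33686386-33686535, minus strand).
PCNA: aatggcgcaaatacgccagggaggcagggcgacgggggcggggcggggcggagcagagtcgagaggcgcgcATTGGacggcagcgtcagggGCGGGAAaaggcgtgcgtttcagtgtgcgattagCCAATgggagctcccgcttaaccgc
MCM6: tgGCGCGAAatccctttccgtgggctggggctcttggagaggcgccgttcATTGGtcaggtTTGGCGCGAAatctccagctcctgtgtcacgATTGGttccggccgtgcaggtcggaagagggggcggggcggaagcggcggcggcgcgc
E2F1: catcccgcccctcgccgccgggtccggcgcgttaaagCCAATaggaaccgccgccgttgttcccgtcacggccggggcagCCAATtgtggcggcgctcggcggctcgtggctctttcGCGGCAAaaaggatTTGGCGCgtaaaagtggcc

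In PCNA, 1 E2F-type match lay between a pair of CCAAT boxes. MCM6 held 3 E2F-type matches, of which 2 overlapped, and E2F1 held 2 close to its own start. None of these 3 stretches held CHR-type letters. The mitotic genes are CCNB1 (chr5:69167000-69167149, plus strand), CCNB2 (chr15:59104996-59105145, plus strand), PLK1 (chr16:23678739-23678888, plus strand) and CDC20 (chr1:43358831-43358980, plus strand).
CCNB1: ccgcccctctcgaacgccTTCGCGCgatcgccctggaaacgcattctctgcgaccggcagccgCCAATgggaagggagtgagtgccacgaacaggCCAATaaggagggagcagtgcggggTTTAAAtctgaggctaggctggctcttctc
CCNB2: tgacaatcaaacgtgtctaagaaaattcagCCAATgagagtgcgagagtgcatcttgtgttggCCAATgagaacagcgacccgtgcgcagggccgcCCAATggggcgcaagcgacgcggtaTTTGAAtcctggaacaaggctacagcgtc
PLK1: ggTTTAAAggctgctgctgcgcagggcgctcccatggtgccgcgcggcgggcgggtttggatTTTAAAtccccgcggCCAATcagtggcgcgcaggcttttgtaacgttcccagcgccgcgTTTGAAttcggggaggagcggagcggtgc
CDC20: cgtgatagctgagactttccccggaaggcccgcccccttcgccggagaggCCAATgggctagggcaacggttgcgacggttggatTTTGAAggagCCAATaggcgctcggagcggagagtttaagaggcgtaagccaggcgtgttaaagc

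In CCNB1, CCNB2 and PLK1 a CHR-type match began 30, 29 and 29 bases before the start, downstream of their CCAAT boxes, and in CDC20 it began 65 bases before the start. CCNB2 held 3 CCAAT boxes. Over the whole 300-base windows, E2F-type letters were in 11 of 13 replication genes and 6 of 21 mitotic genes, against 13.1% of all 27305 promoters of that table. CHR-type letters were in 3 of 13 replication genes and 18 of 21 mitotic genes, against 24.3% of all promoters. CCAAT boxes were in 9 of 13 and 17 of 21, against 35.7%, and a CCAAT box together with CHR-type letters was in 2 of 13 and 14 of 21, against 9.49%. The classes therefore differed most in the E2F-type and CHR-type letters, while most members of both had a CCAAT box. Matches are runs of letters and are not evidence that a factor binds there.

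**Figure D1:**
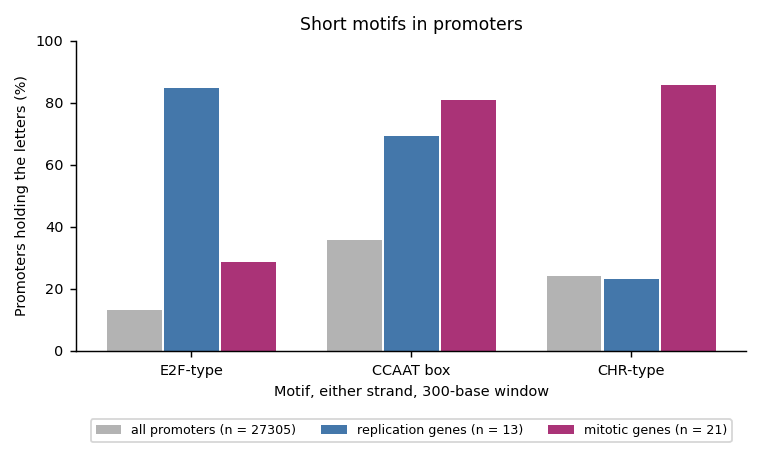
Share of promoters (y axis, percent) that hold E2F-type, CCAAT-box or CHR-type letters on either strand, for all 27305 promoters, 13 replication genes and 21 mitotic genes (bars). E2F-type letters are in 84.6% of the replication genes and 28.6% of the mitotic genes, and CHR-type letters in 23.1% and 85.7%.

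The libraries held 21988065 to 26184599 counts, and between 19833 and 21280 genes had a count above 0. A pair of reads was worth about 4 counts, and an observation of 0 allows up to 3 pairs, or 12 counts, which covers counting error only. Counts were divided by a size factor to give normalized read counts. AP1AR-DT itself (ENSG00000260526; chromosome 4, 112229561 to 112231596) had counts of 3 and 18 (control) and 680 and 1065 (AP1AR-DT_OE), a Log2FC of 6.63 (DESeq2, adjusted P = 3.64e-21, and 0.39 by edgeR's quasi-likelihood test). As a check of the labelled line, the summed level of 11 markers of its neuroblast-like (adrenergic) state ranged from 25348 to 31523 normalized counts and that of 12 mesenchymal markers from 175960 to 243823, with log2 differences between groups of 0.03 and 0.05. Over the whole table, 33 genes (0.137%) passed an adjusted P of 0.05 and were called, and 196 (0.816%) had an unadjusted P under 0.05.

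None of the 42 genes was called between AP1AR-DT_OE and control. The DESeq2 adjusted P was 1.00 for each of them, and none had an unadjusted P under 0.05, against the 0.816% of all genes. Among the 16 replication genes, 14 had a Log2FC above 0 and 2 below. Their median was 0.10 and their range -0.21 (PCNA) to 0.29 (TYMS). The 14 include CCNE2, whose count was 0 in 1 library of each group. Among the 26 mitotic genes, 13 lay above 0 and 13 below, with a median of -0.01. Over all 24014 genes, 10941 lay above 0 and 13073 below, with a median of -0.03. The class medians rested on single libraries: they were -0.0043 and -0.43 without control replicate 1, and 0.38 and 0.49 without control replicate 2. The edgeR quasi-likelihood test called 0 genes in the whole table, so its lack of calls among the 42 adds nothing. It gave 112 genes of the table, and none of the 42, an unadjusted P under 0.05. In bulk RNA, a change in the number of dividing cells and a change in the RNA per dividing cell cannot be told apart.

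The summed normalized counts of the 16 replication genes were 26035 and 22774 for control and 27825 and 24983 for AP1AR-DT_OE. Those of the 26 mitotic genes were 21369 and 20720.2 against 22235 and 21774. The replication sums overlapped between groups, whereas both AP1AR-DT_OE sums of the mitotic genes lay above both controls. These sums are carried by the few abundant members, and their log2 differences were 0.11 and 0.06. They were not tested.

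Levels were compared between genes per kilobase of the longest annotated transcript. In the replication class MCM7 stood highest, at a mean of 1420.2 normalized counts per kilobase over the libraries, followed by TYMS, MCM2, E2F1, PCNA, CDT1, MCM3, MCM4, RRM2, MCM5, RRM1, GINS2, CCNE1, MCM6 and CDC6 (82.9). The order was not the same in every library: TYMS stood above MCM7 in both replicate 2 libraries, and PCNA stood above MCM7 in control 2. In the mitotic class BIRC5 stood highest at 2205, followed by PLK1 (829), AURKB (605) and CCNB1 (509), and DLGAP5 (23.9) was the last of the genes whose mean over the libraries reached 50 normalized counts. CCNE2, CENPE, TTK and NDC80 lay under that mean, at 2.81, 3.46, 9.13 and 11.7 per kilobase. The other 38 genes, 15 of replication and 23 of mitosis, passed it, and since the mean was taken over all 4 libraries it does not depend on the direction of a change.

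**Figure D2:**
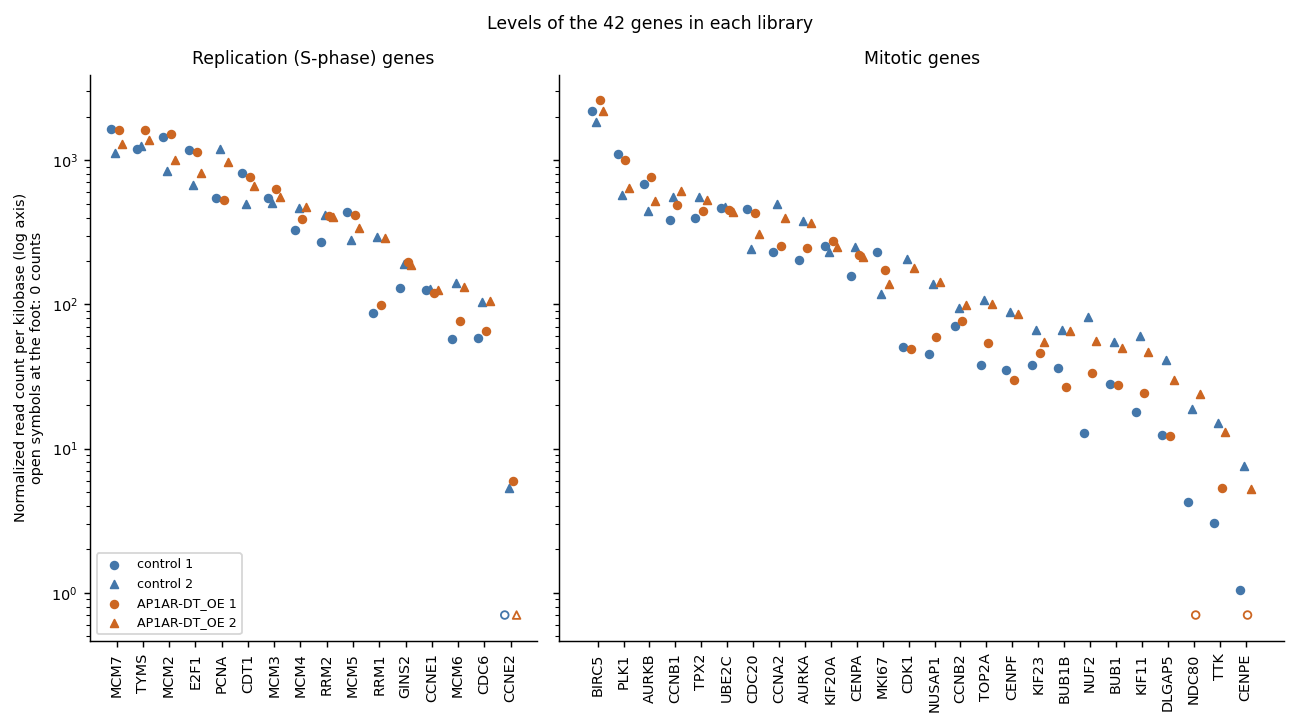
Normalized read counts per kilobase (y axis, log scale) of the 42 genes in each of the 4 libraries (points, with colour for group and shape for replicate number), ordered by mean in each class. Open symbols at the foot stand for a count of 0 in CCNE2, NDC80 and CENPE. From CDK1 to CENPE in the mitotic class, the triangles (replicate 2) stand above the circles (replicate 1) of their group.

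Among the subunits of the replication helicase, MCM2 (ENSG00000073111; chromosome 3, 127598410 to 127622436) had normalized counts of 5009 and 2872 (control) and 5200.4 and 3454 (AP1AR-DT_OE). Its means were 3940.4 ± 1511 for control and 4327 ± 1235 for AP1AR-DT_OE (SD, n = 2 each), a Log2FC of 0.14 (SE = 0.48, 95% interval -0.81 to 1.08), and in both groups replicate 1 was the higher library, so the groups overlapped. MCM7 had 5105 and 3432 against 4996 and 3993, MCM5 had 2001 and 1292 against 1921 and 1565, and MCM6 had 215 and 528 against 288 and 496, with Log2FC values of 0.07, 0.08 and 0.08. MCM7 shares exon sequence with the microRNA MIR93 on its strand and overlaps AP4M1 on the other, so its counts are uncertain in that respect. The subunits thus differed in which library was higher: MCM2, MCM5 and MCM7 were highest in the replicate 1 libraries, and MCM6 in the replicate 2 libraries. MCM3 was the subunit whose groups did not overlap, with 1766 and 1625 against 2038 and 1796 and a Log2FC of 0.18 (SE = 0.43, 95% interval -0.67 to 1.03). MCM4 had 1778 and 2538 against 2119 and 2573, with a Log2FC of 0.12.

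CDC6, which recruits the helicase to origins, had normalized counts of 267 and 472 against 296 and 478 (Log2FC 0.07). Its partner CDT1 had 2183 and 1314 against 2020.5 and 1764 (Log2FC 0.11). CDC6 was higher in replicate 2 of both groups and CDT1 in replicate 1 of both. GINS2 (ENSG00000131153; chromosome 16, 85676198 to 85690073), a subunit of the GINS complex that activates the helicase, had 339 and 497 (control) and 519.9 and 492 (AP1AR-DT_OE). Its means were 418 ± 111 for control and 506 ± 19.5 for AP1AR-DT_OE (SD, n = 2 each), a Log2FC of 0.27 (SE = 0.49, 95% interval -0.68 to 1.23), and control 1 was the 1 library that stood apart from the other 3. The within-number log2 ratios of GINS2 were 0.62 in number 1 and -0.01 in number 2. GINS2 overlaps GSE1 on the other strand.

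PCNA (ENSG00000132646; chromosome 20, 5114953 to 5126626), the sliding clamp of the replication fork, had normalized counts of 738 and 1628 (control) and 721 and 1325 (AP1AR-DT_OE). Its means were 1183 ± 629.6 for control and 1023 ± 427 for AP1AR-DT_OE (SD, n = 2 each), a Log2FC of -0.21 (SE = 0.54, 95% interval -1.27 to 0.85). The replicate 2 libraries were the high ones in both groups, AP1AR-DT_OE 2 lay between the controls and AP1AR-DT_OE 1 just under control 1. Within numbers the log2 ratios were -0.03 in number 1 and -0.30 in number 2.

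The nucleotide supply was represented by TYMS, RRM1 and RRM2. TYMS (ENSG00000176890; chromosome 18, 657653 to 673578), thymidylate synthase, had normalized counts of 1926 and 2038 (control) and 2604 and 2235 (AP1AR-DT_OE), and the groups did not overlap. Its means were 1982 ± 79.2 for control and 2419.6 ± 261 for AP1AR-DT_OE (SD, n = 2 each), a Log2FC of 0.29 (SE = 0.43, 95% interval -0.56 to 1.13) with an unadjusted P of 0.504 from DESeq2, the lowest of the replication class. The 95% interval of the fold ran from 0.68 to 2.19. TYMS overlaps ENOSF1 and TYMSOS on the other strand, and reads of overlapping genes could not be separated here. RRM2 (ENSG00000171848; chromosome 2, 10120698 to 10211725), the small subunit of ribonucleotide reductase, had 999 and 1523 (control) and 1494 and 1484 (AP1AR-DT_OE), with means of 1261 ± 371 for control and 1489 ± 7.15 for AP1AR-DT_OE (SD, n = 2 each) and a Log2FC of 0.24 (SE = 0.46, 95% interval -0.66 to 1.14). As with GINS2, 3 libraries of RRM2 were close together and control 1 was low. RRM1, the large subunit, had 278 and 933 against 314 and 909 (Log2FC 0.01), and the log2 ratio of replicate 2 over replicate 1 was 1.75 between the controls and 1.54 between the AP1AR-DT_OE libraries.

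The G1/S regulators differed little between groups. CCNE1 (ENSG00000105173; chromosome 19, 29811991 to 29824312), cyclin E1, had normalized counts of 247 and 249 (control) and 233 and 244 (AP1AR-DT_OE). Its means were 248 ± 1.42 for control and 238 ± 8.22 for AP1AR-DT_OE (SD, n = 2 each), a Log2FC of -0.06 (SE = 0.51, 95% interval -1.07 to 0.95); both AP1AR-DT_OE libraries lay just below both controls. E2F1 (ENSG00000101412; chromosome 20, 33675477 to 33686385), an activator of the E2F family, had 3183 and 1815 (control) and 3041 and 2175 (AP1AR-DT_OE), with means of 2499 ± 967 for control and 2608 ± 612 for AP1AR-DT_OE (SD, n = 2 each) and a Log2FC of 0.06 (SE = 0.48, 95% interval -0.88 to 1.00). The replicate 1 libraries were the high ones of both groups for E2F1. CCNE2, cyclin E2, had counts of 0 and 23 (control) and 18 and 0 (AP1AR-DT_OE), so 1 library of each group was at 0 and no fold is given.

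CCNB1 (ENSG00000134057; chromosome 5, 69167135 to 69178245), cyclin B1, had normalized counts of 781 and 1118 (control) and 998 and 1235 (AP1AR-DT_OE). Its means were 949.5 ± 238 for control and 1116 ± 167 for AP1AR-DT_OE (SD, n = 2 each), a Log2FC of 0.23 (SE = 0.46, 95% interval -0.67 to 1.14), and AP1AR-DT_OE 1 lay between the controls. Its kinase CDK1 (ENSG00000170312; chromosome 10, 60778331 to 60794852) had 97.9 and 399.6 (control) and 95.4 and 346 (AP1AR-DT_OE). CDK1 means were 249 ± 213 for control and 221 ± 177 for AP1AR-DT_OE (SD, n = 2 each), a Log2FC of -0.17 (SE = 0.75, 95% interval -1.64 to 1.29), and the replicate 2 libraries were the high ones in both groups. CCNB2 had 178 and 237 against 193 and 248 (Log2FC 0.09) and CCNA2, cyclin A2, had 639 and 1372 against 693 and 1093 (Log2FC -0.17). The groups overlapped for all 4 of these genes.

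The mitotic kinases fell on both sides of 0. AURKB (ENSG00000178999; chromosome 17, 8204733 to 8210600), the catalytic subunit of the chromosomal passenger complex, had normalized counts of 862 and 555 (control) and 964 and 652 (AP1AR-DT_OE). Its means were 708 ± 217 for control and 808 ± 221 for AP1AR-DT_OE (SD, n = 2 each), a Log2FC of 0.19 (SE = 0.49, 95% interval -0.77 to 1.15), and AP1AR-DT_OE 2 lay between the controls. BIRC5 (ENSG00000089685; chromosome 17, 78214186 to 78225636), survivin, a partner of AURKB in that complex, had 5928 and 4971 (control) and 7055 and 5955 (AP1AR-DT_OE), and its groups did not overlap, although the lower AP1AR-DT_OE library stood only just above the higher control. BIRC5 means were 5449 ± 677 for control and 6505 ± 778 for AP1AR-DT_OE (SD, n = 2 each), a Log2FC of 0.26 (SE = 0.43, 95% interval -0.58 to 1.10), with an unadjusted P of 0.551 from DESeq2, the lowest of the mitotic class. Within numbers the log2 ratios of BIRC5 were 0.25 in number 1 and 0.26 in number 2. AURKA had 459 and 857 against 551 and 819.8 and PLK1 had 4543 and 2377 against 4135 and 2651, with Log2FC values of 0.06 and -0.03. The checkpoint gene BUB1 had 105 and 206 against 104 and 187 (Log2FC -0.10). BUB1B, also a checkpoint gene, had 132 and 245 against 98.7 and 238 (Log2FC -0.16). BUB1B shares exon sequence with PAK6. TTK, the kinase at the top of the checkpoint, had counts of 10 and 73 (control) and 18 and 49 (AP1AR-DT_OE), of which the control 1 value was under the floor.

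At centromeres and kinetochores, CENPA, the centromeric histone H3 variant, had normalized counts of 219.8 and 347 against 304 and 294 (Log2FC 0.07) and shares exon sequence with SLC35F6. CENPF had 361 and 910.2 against 306 and 882 (Log2FC -0.10). NUF2, a subunit of the NDC80 complex that holds microtubules, had 25.1 and 160.4 against 65.8 and 109, with a within-number log2 ratio of 1.39 in number 1 and -0.56 in number 2, the widest disagreement between numbers among the 38 genes. NDC80 itself had counts of 8 and 52 (control) and 0 and 51 (AP1AR-DT_OE). CENPE (ENSG00000138778; chromosome 4, 103105349 to 103198445), a kinetochore kinesin, had counts of 8 and 86 (control) and 0 and 46 (AP1AR-DT_OE), and its fitted Log2FC of -0.73 (SE = 2.93, 95% interval -6.46 to 5.01) rested on 2 libraries at or under the floor. For NDC80, CENPE and TTK the replicate 2 libraries held most of the counts.

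Among spindle proteins, DLGAP5 (ENSG00000126787; chromosome 14, 55148112 to 55191608), a microtubule-stabilising protein, had normalized counts of 36.4 and 122 (control) and 36.2 and 88.3 (AP1AR-DT_OE). Its means were 79.2 ± 60.4 for control and 62.3 ± 36.9 for AP1AR-DT_OE (SD, n = 2 each), a Log2FC of -0.35 (SE = 0.83, 95% interval -1.98 to 1.28), the lowest Log2FC among the 38 genes, and the replicate 1 libraries were almost equal. The motor KIF11 had 92.3 and 309 against 124 and 238, KIF23 had 142 and 245 against 172 and 204, and KIF20A had 788 and 710.4 against 847 and 767, with Log2FC values of -0.15, -0.04 and 0.11. TPX2, which activates AURKA on the spindle, had 1437 and 2009 against 1595 and 1894 (Log2FC 0.02), and NUSAP1 had 142 and 440.5 against 186 and 453 (Log2FC 0.13). KIF20A was the motor with the least spread between libraries. NUSAP1 shares exon sequence with OIP5-AS1 and overlaps OIP5 on the other strand. KIF20A, KIF23, NUF2, CENPF, CCNA2, RRM1 and CCNE2 also overlap genes on the other strand.

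The anaphase-promoting complex was represented by its activator CDC20, with normalized counts of 818 and 432 against 761 and 549.9 (Log2FC 0.07), and its ubiquitin-conjugating enzyme UBE2C, with 424 and 429.7 against 410.2 and 398 (Log2FC -0.08). UBE2C was lower in both AP1AR-DT_OE libraries than in both controls, and its 95% interval of the fold was 0.496 to 1.81.

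The proliferation marker MKI67 (ENSG00000148773; chromosome 10, 128096659 to 128126423) had normalized counts of 2911 and 1497 (control) and 2215 and 1751 (AP1AR-DT_OE). Its means were 2204 ± 999.7 for control and 1983 ± 328 for AP1AR-DT_OE (SD, n = 2 each), a Log2FC of -0.15 (SE = 0.49, 95% interval -1.11 to 0.80). TOP2A (ENSG00000131747; chromosome 17, 40388525 to 40417896), the topoisomerase that untangles sister chromatids, had 216 and 609 (control) and 305 and 576 (AP1AR-DT_OE), with means of 413 ± 277 for control and 440.3 ± 191 for AP1AR-DT_OE (SD, n = 2 each) and a Log2FC of 0.09 (SE = 0.60, 95% interval -1.09 to 1.28). In both genes the AP1AR-DT_OE libraries lay between the controls, but MKI67 was highest in control 1 and TOP2A in control 2. The 95% intervals of the fold were 0.464 to 1.74 for MKI67 and 0.47 to 2.42 for TOP2A, so folds within these bounds could not be told from no change with 2 libraries a group.

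Across the 42 genes, both AP1AR-DT_OE libraries lay above both controls in 3 (TYMS, MCM3 and BIRC5) and below both in 2 (CCNE1 and UBE2C). Among the 13298 genes of the table with a mean of at least 50, the shares were 5.11% above and 4.35% below. The 42 genes were therefore near the rest of the table in this count. The median size of the Log2FC, without its sign, was 0.10 over the 38 genes and 0.12 over all genes with that mean, and the median standard error was 0.51 and 0.52. The 25 called genes with that mean differed by at least 4.58-fold, and the widest fold interval among the 38 genes, that of NUF2, ran from 0.299 to 2.96.

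**Figure D3:**
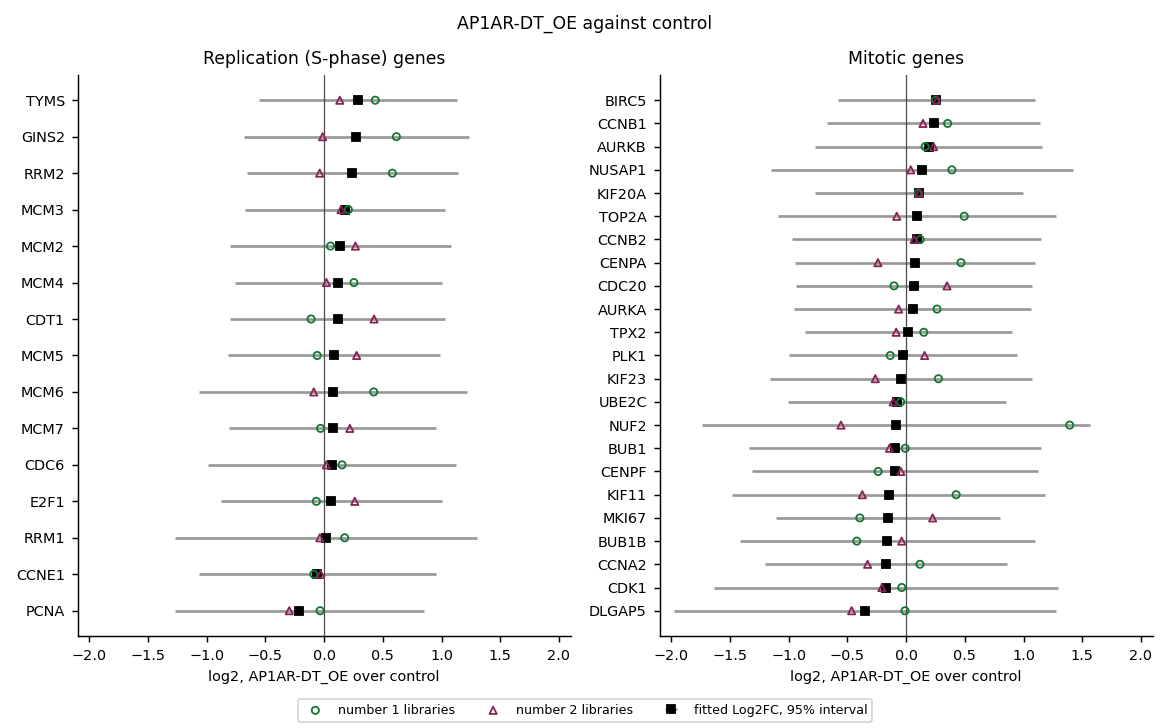
Log2 ratio of AP1AR-DT_OE over control (x axis) for the 15 replication and 23 mitotic genes with a mean of at least 50, with the fitted Log2FC (squares), its 95% interval (bars) and the ratios within replicate number 1 (circles) and 2 (triangles). All 38 intervals hold 0, and the pairs of open symbols lie on opposite sides of 0 in 19 genes.

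The libraries of each group also differed from each other between replicate numbers. Over the 38 genes the median log2 ratio of replicate 2 over replicate 1, without its sign, was 0.81 in the controls. It was 0.48 in the AP1AR-DT_OE libraries. The larger of these ratios exceeded the size of the fitted Log2FC in 35 of 38 genes. It did so in 12522 of 13220 genes of the whole table. Ratios of single libraries vary more than a difference of group means, and the larger ratio was taken. A high count was therefore to be expected and does not weigh replicate numbers against groups. The ratio of replicate 2 over replicate 1 ran from -0.96 (MKI67) to 2.68 (NUF2) in the controls. In the AP1AR-DT_OE libraries it ran from -0.64 (PLK1) to 1.86 (CDK1). It had the same sign in both groups in 33 of 38 genes (86.8%), close to the 86.2% of all genes with that mean. Mitotic kinases could therefore differ in opposite directions between libraries of 1 group: CDK1 gave 2.03 between the controls and 1.86 between the AP1AR-DT_OE libraries, while AURKB gave -0.64 between the controls and -0.56 between the AP1AR-DT_OE libraries.

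The side that a gene took followed the GC content of its transcript. All 15 of the genes with a GC content under 45% were higher in replicate 2 than in replicate 1 of both groups, with median log2 ratios of 1.29 and 0.84. They were 12 mitotic genes and 3 replication genes (MCM6, RRM1 and CDC6). Of the 23 genes with a GC content of 45% or more, 11 were higher in control 2 than in control 1 and 6 in AP1AR-DT_OE 2 than in AP1AR-DT_OE 1. Across the 38 genes Spearman's rho between GC content and this ratio was -0.87 in the controls and -0.86 in the AP1AR-DT_OE libraries, against -0.77 and -0.65 over all genes. It was -0.96 and -0.86 in the replication class (n = 15) and -0.87 and -0.82 in the mitotic class (n = 23). These are descriptions across genes, which share libraries and base composition and are not independent. The limit of 45% was set after the values were seen.

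The 2 classes differ in this property. The 16 replication genes had a median GC content of 48.7% and a range of 36.9% (CCNE2) to 64.3% (CDT1), and the 26 mitotic genes a median of 42.7% and a range of 35.4% (CENPE) to 57.9% (CDC20). The median log2 levels of the replication class in the 4 libraries, relative to the mean of the libraries, were -0.18 and 0.03 (control) and 0.18 and 0.03 (AP1AR-DT_OE). Those of the mitotic class were -0.38 and 0.39 (control) and -0.13 and 0.28 (AP1AR-DT_OE). The mitotic class thus separated replicate 1 from replicate 2 in both groups. Level per kilobase also rose with GC content over the 38 genes (rho = 0.74, against 0.47 over all genes). The part of GC content in these differences was not tested.

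**Figure D4:**
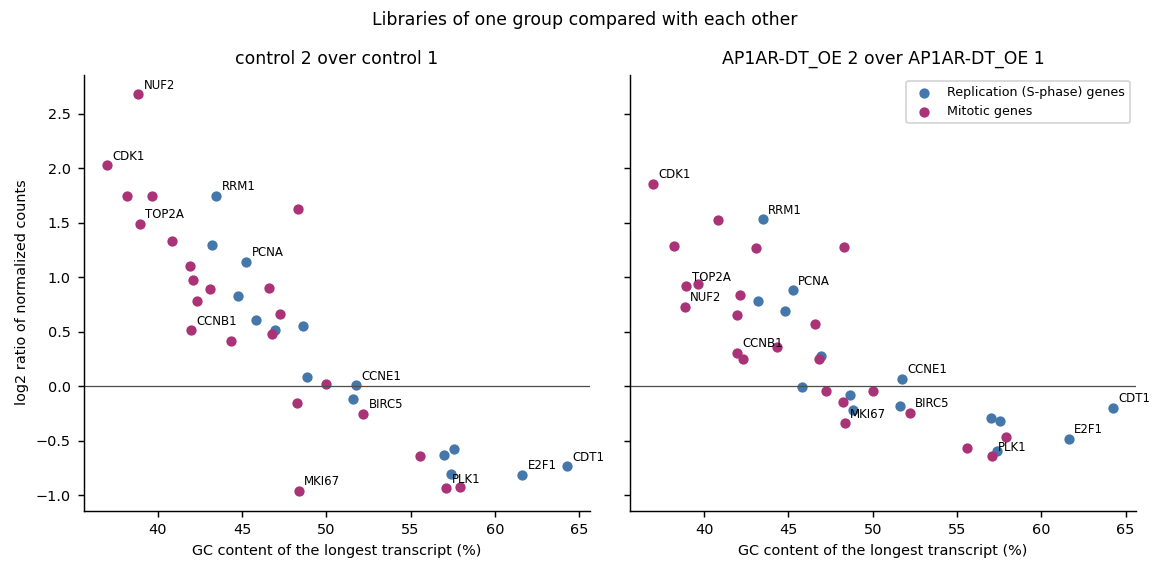
Log2 ratio of replicate 2 over replicate 1 (y axis) against the GC content of the longest transcript (x axis, percent) for the 38 genes with a mean of at least 50, in the controls (left) and the AP1AR-DT_OE libraries (right). In both groups the ratio falls with GC content (rho = -0.87 and -0.86), and every gene under 45% lies above 0.

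Within replicate numbers, each of which held 1 library per group and so gave no test, the median log2 ratio of AP1AR-DT_OE over control was 0.13 over the 38 genes in number 1 and -0.02 in number 2. It was above 0 in 23 genes in number 1 and in 18 in number 2, and it had the same sign in both numbers in 19 of 38, against 38.3% of all genes with that mean. The replication class gave medians of 0.15 and 0.02 and the mitotic class 0.12 and -0.06. These ratios also followed GC content, with rho = -0.32 in number 1 and 0.81 in number 2. Over all genes rho was -0.34 and 0.62. In number 2 the genes with under 45% GC had a median of -0.09 and the others 0.13.

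A smoothed trend on GC content was then taken out of each library, with the trend fitted over all genes. The median size of the replicate 2 over replicate 1 ratio of the 38 genes fell from 0.81 to 0.27 in the controls. In the AP1AR-DT_OE libraries it fell from 0.48 to 0.22. Over all genes with a mean of at least 50 it fell from 0.72 to 0.33 and from 0.42 to 0.25. The trend was fitted to these same counts, so a fall was largely built in. With this correction the Log2FC of the 38 genes ran from -0.17 to 0.30, the median standard error was 0.33, and again none of the 42 was called or had an unadjusted P under 0.05 in DESeq2. The median Log2FC was 0.12 in the replication class and 0.06 in the mitotic class. Spearman's rho between GC content and the replicate ratio of the 38 genes was still -0.51 and -0.49 after the correction. Over all genes, on which the trend was fitted, rho was -0.011 in the controls and -0.013 in the AP1AR-DT_OE libraries.

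Other genes of the same processes were read in the same fit. Of 43 other replication genes, such as polymerase and origin recognition subunits, none was called (0.137% of all genes) and 1 had an unadjusted P under 0.05 (0.816% of all genes), and the median Log2FC was 0.05. This was POLD3, a subunit of DNA polymerase delta, with normalized counts of 123 and 100.3 against 181 and 372 (DESeq2, Log2FC 1.31, unadjusted P = 0.0267, adjusted P = 1.00). AP1AR-DT_OE 2 was the highest library, and without that library the Log2FC was 0.69. POLD3 shares exon sequence with LIPT2-AS1 on its own strand, so its counts are uncertain in that respect. DBF4, the activator of the CDC7 kinase, had the lowest Log2FC of that list at -0.70 (SE = 0.79, 95% interval -2.24 to 0.84). Its normalized counts were 52.4 and 253 against 57.0 and 131.

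Of 44 other mitotic genes none was called and 1 had an unadjusted P under 0.05, against the same 0.137% and 0.816% of all genes, with a median Log2FC of 0.03. This was CDCA5, sororin, which keeps sister chromatids together, with normalized counts of 542 and 316 against 3489 and 412 (DESeq2, Log2FC 2.18, unadjusted P = 0.00261, adjusted P = 0.929). AP1AR-DT_OE 1 alone was high. Without it the Log2FC was -0.06, and without AP1AR-DT_OE replicate 2 it was 3.01 and was called (adjusted P = 0.00583). MIS12, a kinetochore subunit, had the lowest Log2FC at -1.35, with 91.1 and 361 against 147 and 30.8, and the low value was that of AP1AR-DT_OE 2.

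A list of G1 control genes held D cyclins, CDKs, CDK inhibitors, the RB family and E2F factors, and also FBXO5, which is of none of these families. Of its 28 measured genes, with a median Log2FC of -0.06, none was called (0.137% of all genes). Of them, 1 had an unadjusted P under 0.05 (0.816% of all genes). This was TFDP1, the dimerisation partner of E2F factors, with normalized counts of 434 and 466 against 498 and 2173 (DESeq2, Log2FC 1.57, unadjusted P = 0.0113, adjusted P = 1.00). AP1AR-DT_OE 2 alone was high, and without it the Log2FC was 0.13. FBXO5, an inhibitor of the anaphase-promoting complex, had the lowest Log2FC among the genes with a mean of at least 50, at -0.57, with 93.4 and 327 against 95.4 and 189.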

How the data were processed

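RNA of 4 SK-N-SH libraries (2 control, 2 AP1AR-DT_OE) was measured by RNA-seq. Per the paper's methods, the authors aligned reads with HISAT2 to hg19 and took gene counts from StringTie with its Python script. The submitters' processing notes name TopHat2 2.0.4, SAMtools, HTSeq, Cuffdiff and edgeR 2.6.12 instead. The annotation is not given in the sources used here, nor is it stated whether counting used strand. The deposited values are whole-number counts per gene without normalization, which the authors placed beside their own DESeq2 and edgeR tests; those were not used. Gene coordinates in the table are GRCh38 positions and are printed as given. Low counts piled up at 4 (3287 entries, against 2136 at 3 and 1509 at 5) and 8, so a read pair was worth about 4 counts and low values are less precise than their counts.

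Counts were fitted over all 24014 genes with DESeq2 1.42.0 in R 4.3.3. The fit used median-of-ratios size factors, a two-sided Wald test and Benjamini-Hochberg adjustment, with calls at an adjusted P under 0.05. The procedure was also run on simulated counts with known changes. Those counts held no GC trend and no difference between replicate numbers, so they do not test the fit on data of this kind. Intervals are 95% and cover the fitted error, which DESeq2 estimates partly over all genes. GC content and length came from each gene's longest transcript in the GENCODE release 44 models on GRCh37, matched by gene ID for 23954 genes. Ratios of single libraries and levels were described for genes that averaged 50 or more normalized counts. The GC correction was a lowess trend (span 0.3) per library. Members and lists were chosen with earlier results of these data known, and RBL1 was matched by gene ID. CCND2 and TH are not analysed here. Full statistics were given for any member with an unadjusted P under 0.05 and the 3 largest rises and falls per class. The replication class had 2 falls. Full statistics were also given for MKI67, TOP2A, CCNB1, PCNA, MCM2, CCNE1 and E2F1. From the other lists, normalized counts and the Log2FC were given for genes with an unadjusted P under 0.05 and the largest rise and fall. Alternatives were edgeR 4.0.16 (quasi-likelihood test), TMM factors, a filter of 10 counts in 2 libraries, no independent filtering, the replicate number as a block, the GC correction with and without that block, counts divided by 4, and leaving out each library.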

Additional observations from a re-analysis of the deposited data

How the results depend on the processing

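None of the 42 genes was called under any of the 12 alternatives, and none had an unadjusted P under 0.05 except CENPE and NDC80 without AP1AR-DT_OE replicate 2, where AP1AR-DT_OE was left with a count of 0. The number of genes called in the whole table, 33 in the fit reported, was 0 with edgeR (quasi-likelihood, with 112 genes under 0.05 before adjustment), 55 with the GC correction, 60 with the GC correction and replicate block, 15 with counts divided by 4, and 45 to 90 when 1 library was left out. The edgeR test gave AP1AR-DT a Log2FC of 6.60 with an adjusted P of 0.39, and leaving out 1 library gave 6.02 to 8.05. The replication median of 0.10 ran from -0.0043 to 0.38 and the mitotic median of -0.01 from -0.43 to 0.49 when 1 library was left out, the highest of each being without control replicate 2 and the lowest without control replicate 1, so the sign of either median rested on single libraries. Leaving out 1 library changed the sign of the Log2FC of 12 to 18 of the 42 genes, and the other alternatives that of 0 to 6. Of the other mitotic genes 0 to 1 was called when 1 library was left out (CDCA5). With TMM factors the medians were 0.07 and -0.03.

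With the replicate block 37 genes were called in the whole table, 0 of the 42, and the class medians were 0.12 and 0.02. The median standard error of the 38 genes fell from 0.51 to 0.29, and to 0.25 with the GC correction as well. Deviations of same-numbered libraries from their group means correlated over 13298 genes (r = 0.49, and 0.26 after the GC correction), but the labels do not say that the numbers mark a shared batch, so the samples share only a number. The mesenchymal marker PRRX1 was called with the block (Log2FC -1.75, DESeq2 adjusted P = 1.1e-07), with the GC correction (-1.76, adjusted P = 0.00114) and without control replicate 1 (-2.71), while its Log2FC was -0.66 without control replicate 2. CCNE2, CENPE, TTK and NDC80 each had at least 1 library under the floor of 12 counts. The causes were not tested.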

Other observations

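Among the G1 control genes, 2 were far more abundant than any of the 42 replication and mitosis genes, and both were singled out after their values were seen. CDKN1A, which encodes the CDK inhibitor p21, had normalized counts of 87188 and 46177 (control) and 72375 and 50512 (AP1AR-DT_OE), or 28259 per kilobase, with a Log2FC of -0.12. CCND1, cyclin D1, had 40669 and 40211 (control) and 40775 and 39208 (AP1AR-DT_OE), or 9489 per kilobase, with a Log2FC of -0.02. BIRC5, the highest of the 42, stood at 2205 per kilobase. CDKN2A, which encodes p16 and ARF, had 1727 and 1358 against 1899 and 1442, and RB1 had 146 and 319 against 158 and 270.0, with Log2FC values of 0.12 and -0.12. None of these 4 G1 control genes was called.

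Among the mesenchymal markers, PRRX1, a transcription factor of the mesenchymal state of neuroblastoma, had normalized counts of 2769.9 and 11358 (control) and 1241 and 2246 (AP1AR-DT_OE). Both AP1AR-DT_OE libraries lay below both controls, with a Log2FC of -2.02 (DESeq2, unadjusted P = 0.000987, adjusted P = 0.431), and control 2 was the highest library by far. It was the 1 marker of the 12 with an unadjusted P under 0.05 in DESeq2, against 0.816% of all genes. No adrenergic marker had one. The 12 mesenchymal markers did not move together, with 6 above 0, 6 below and a median Log2FC of -0.0040.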
